A study of Rattus norvegicus with 20 samples.

Results

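The miR-29 strands on the array were rno-miR-29a, rno-miR-29b and rno-miR-29c, the mature products of the family, and rno-miR-29a* and rno-miR-29c*, the strands cut from the opposite arm of the miR-29a and miR-29c precursors (the rat prefix rno is left out from here on). They were taken as the 5 of 348 miRNAs whose name is one of these on every array, whatever their signal. The array also carries miR-29b-1* and miR-29b-2*, which were detected on 0 of 20 arrays and are not described further. The arrays measured the right sciatic nerve territory of adult male Sprague-Dawley rats, in soleus muscle and in L4-L6 dorsal root ganglia (DRGs). Rats had either a sham operation, denervation of 6 months (the nerve was cut, a segment was taken out and the stump was tied into thigh muscle), entrapment of 6 months (a loose silastic tube was laid around the nerve) or entrapment of 6 months followed by decompression of 3 months (the tube was taken off). Each tissue had 1 sham array and 3 arrays of each injury group. The study used 3 rats of each group for arrays, but whether the sham array held 1 rat or a pool, and which soleus and DRG arrays came from the same rat, is not given in the sources used here.

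The miR-29 family is best known for holding down genes of the extracellular matrix, among them several collagens, elastin and fibrillin, and it is described as anti-fibrotic in heart, kidney, liver and skeletal muscle. Other known targets are the de novo DNA methyltransferases and the survival protein Mcl-1, and in postmitotic neurons the family is known for restraining pro-apoptotic BH3-only genes. A precursor hairpin gives a duplex of 2 strands. The strand loaded into Argonaute becomes the mature miRNA, and the star, or passenger, strand is usually broken down, so both strands share transcription and processing but not their later stability.

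The sequences are shown because the 3 mature strands share a seed (bases 2 to 8, in capitals), while each star strand has a seed of its own. They are the RefSeq sequences of the 5 matching entries, read 5′ to 3′, with positions on GRCr8.
miR-29a: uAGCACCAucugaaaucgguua
miR-29b: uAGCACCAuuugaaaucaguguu
miR-29c: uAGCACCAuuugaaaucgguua
miR-29a*: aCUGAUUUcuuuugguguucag
miR-29c*: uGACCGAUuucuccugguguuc
Counted from the 5′ end with the miR-29a base first, miR-29c differed from miR-29a by C10U alone, and miR-29b by C10U, G18A, U21G and A22U over the 22 shared positions. Counted likewise from both 5′ ends with no shift, the star strands differed from each other at 17 of 22 positions. Their 5′ ends are offset, so this count does not measure how alike the star strands are. Mature miR-29a lies at chr4:60617968-60617989 and miR-29a* at chr4:60618006-60618027, both on the minus strand in Mir29a. Mature miR-29c lies at chr13:109099412-109099433 and miR-29c* at chr13:109099374-109099395, both on the plus strand in Mir29c. Mature miR-29b comes from 2 loci with 1 and the same sequence. Mir29b1 is 291 bases from Mir29a and Mir29b2 is 447 bases from Mir29c, so that the signal of miR-29b pools both clusters. All 4 hairpins are annotated as miRNA genes. Mir29b2 and Mir29c overlap the long non-coding RNA LOC102550527.

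The precursors of the strand pairs measured here are printed with both arms in capitals, the star arm first.
Mir29a: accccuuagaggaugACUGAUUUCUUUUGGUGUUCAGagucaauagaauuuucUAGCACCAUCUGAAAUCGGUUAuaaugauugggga
Mir29c: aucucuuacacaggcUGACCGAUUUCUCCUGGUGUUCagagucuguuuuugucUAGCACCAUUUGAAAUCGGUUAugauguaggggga
Mir29a is chr4:60617955-60618042 and Mir29c is chr13:109099359-109099446.

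Signals are given on a scale on which each array was divided by the 75th percentile of its miRNAs and multiplied back to a common level, and differences are log2 differences with Benjamini-Hochberg adjusted p-values from limma over all miRNAs tested in a tissue (173 in soleus, 219 in the DRGs). The unscaled 75th percentile spanned 6.20-fold over the soleus arrays and 1.62-fold over the DRG arrays. The arrays of sham and denervation stood apart from those of entrapment and decompression: 12 of 45 control features in soleus and 24 of 45 in the DRGs, which hold no rat miRNA, had no overlap between these sets. Differences of entrapment or decompression from sham or denervation therefore cannot be told apart from this split of the arrays. More miRNAs were detected on the DRG arrays of sham (233) and denervation (213 to 225) than on those of entrapment (183 to 186) and decompression (187 to 200). In the authors' processed table, the DRG values named entrapment equal the scanner files labelled decompression, and the reverse, so these labels conflict. The file labels are followed here, and the values under the table's labels are given where they change a call. The muscle markers summed to between 56279 and 342043 on soleus arrays and between 252 and 401 on DRG arrays. Of the 6 neuron markers, miR-9, miR-124, miR-183 and miR-138 were not detected on any soleus array. The other neuron markers were detected there in 1 group each, miR-182 after denervation and miR-96 after decompression. All 6 summed to between 16.2 and 49.3 on soleus arrays and between 4006 and 4878 on DRG arrays. The soleus sham array alone lacked a detected miR-126*, an endothelial strand detected on every other array. The muscle marker miR-499 was also not detected on the soleus sham array, while it was detected in each soleus injury group. Tissue RNA cannot tell fewer cells of a type from less RNA per cell. With 1 sham array, differences from sham assume that it varies like the other groups, and every comparison with sham rests on it.

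In soleus, mature miR-29b had a higher signal after entrapment and after decompression than in sham, and mature miR-29a and miR-29c were higher after decompression than after denervation. The star strand miR-29a* ran the other way, with its highest signals after denervation. All 5 strands were detected on all 10 soleus arrays.

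miR-29b, the strand made from both clusters, was at 1202 on the sham array, at 1332, 2250 and 2622 after denervation, at 5745, 2724 and 4190 after entrapment and at 3815, 5990 and 3640 after decompression. The entrapment and decompression arrays all lay above the sham and denervation arrays. miR-29b rose by 1.75 over sham after entrapment (SE 0.54, limma adjusted p = 0.0379) and by 1.86 after decompression (SE 0.54, limma adjusted p = 0.0287), and it was over 2-fold higher on each of these arrays, as were 11.0% (entrapment) and 13.3% (decompression) of tested miRNAs. It was the 1 member of 5 called in each of these comparisons, where 9.83% of the 173 miRNAs were called higher in each and 19.7% and 22.0% lower, that is 29.5% and 31.8% in either direction. Over all 173 miRNAs the median difference was -0.37 (entrapment) and -0.25 (decompression). The split of all calls moved with scaling, from 17 higher and 34 lower after entrapment to 28 and 17 with quantile scaling, and from 17 and 38 after decompression to 31 and 24, while miR-29b stayed past the threshold (1.69 and 1.60). The 2 endothelial markers, miR-126 and miR-126*, were called higher than sham in all 3 injury groups. miR-126 rose by 1.64, 1.90 and 1.93 after denervation, entrapment and decompression. miR-126* was not detected in sham. Taken there at the dimmest detected miRNA of that array, it rose by 15.0-fold, 7.33-fold and 7.55-fold in the same order. The summed signal of both markers was 362 in sham against 1044 to 1708 after injury, and their part in the result was not tested. miR-29b was 1 of 25 soleus miRNAs (14.5%) with no overlap between sham with denervation and the other arrays. Injury and array set cannot be told apart in its entrapment and decompression results. After denervation miR-29b was 0.73 above sham (SE 0.54, limma adjusted p = 0.358). The entrapment call was lost, with limma adjusted p between 0.0505 and 0.0796, without denervation array 2, entrapment array 1 or 3, or decompression array 1 or 3. The decompression call was lost without decompression array 1 (limma adjusted p = 0.0510) or 2 (0.0560), and both calls were lost when all 348 miRNAs were tested (0.0914 and 0.0676) or when only the arrays of both groups were fitted (0.108 and 0.0812).

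miR-29a was at 3967 in sham, at 2045, 2595 and 2281 after denervation, at 4353, 3498 and 4560 after entrapment and at 4345, 5423 and 4264 after decompression. miR-29c was at 4326 in sham, at 2607, 2445 and 1850 after denervation, at 3443, 3040 and 4214 after entrapment and at 4789, 3805 and 4781 after decompression. Both were lowest after denervation, with no overlap between the denervation arrays and any other soleus array. Against denervation the groups did not overlap for 30.6% of tested miRNAs after entrapment and 33.5% after decompression. Against sham the denervation differences were -0.79 for miR-29a (SE 0.34, limma adjusted p = 0.112) and -0.93 for miR-29c (SE 0.36, limma adjusted p = 0.0931), and neither passed the threshold. The sign of both turned without scaling, to 0.69 and 0.56, when the median of all miRNAs stood at 1.32. Denervation against sham called 0 of the 5 strands, 3 of which had an unadjusted p under 0.05, where 26.6% of the 173 miRNAs were called, 20 higher and 26 lower (23 and 14 with loess scaling, 10 and 0 without scaling). Against denervation, miR-29a rose by 1.02 after decompression (SE 0.24, limma adjusted p = 0.0233) and miR-29c by 0.96 (SE 0.25, limma adjusted p = 0.0408). They were the 2 miRNAs of 173 called higher in that comparison, a background of 1.16%. Both sequences differ by C10U alone, and whether their probes tell them apart was not tested, so the 2 calls may not be independent. miR-29b was 1.13 above denervation after decompression (limma adjusted p = 0.0831). Entrapment against denervation called 0 of 173 miRNAs higher by limma, and 4 with an unadjusted p under 0.05, among them miR-29a at 0.84 (limma adjusted p = 0.0523), miR-29b at 1.02 (0.140) and miR-29c at 0.63 (0.169). The decompression calls depended on single arrays, as the limma adjusted p of miR-29a rose to between 0.0523 and 0.0778 without denervation array 1 or 2 or any 1 decompression array, and that of miR-29c to between 0.0620 and 0.154 without denervation array 1 or 2, entrapment array 2 or decompression array 1 or 3. Quantile scaling gave miR-29a 0.52 (limma adjusted p = 0.108) and miR-29c 0.75 (0.146), with 4 miRNAs called higher and 4 lower in place of 2 and 22. With the percentile taken over all miRNAs the split was 19 and 14, and that of entrapment against denervation was 19 and 15 in place of 0 and 20.

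**Figure D1:**
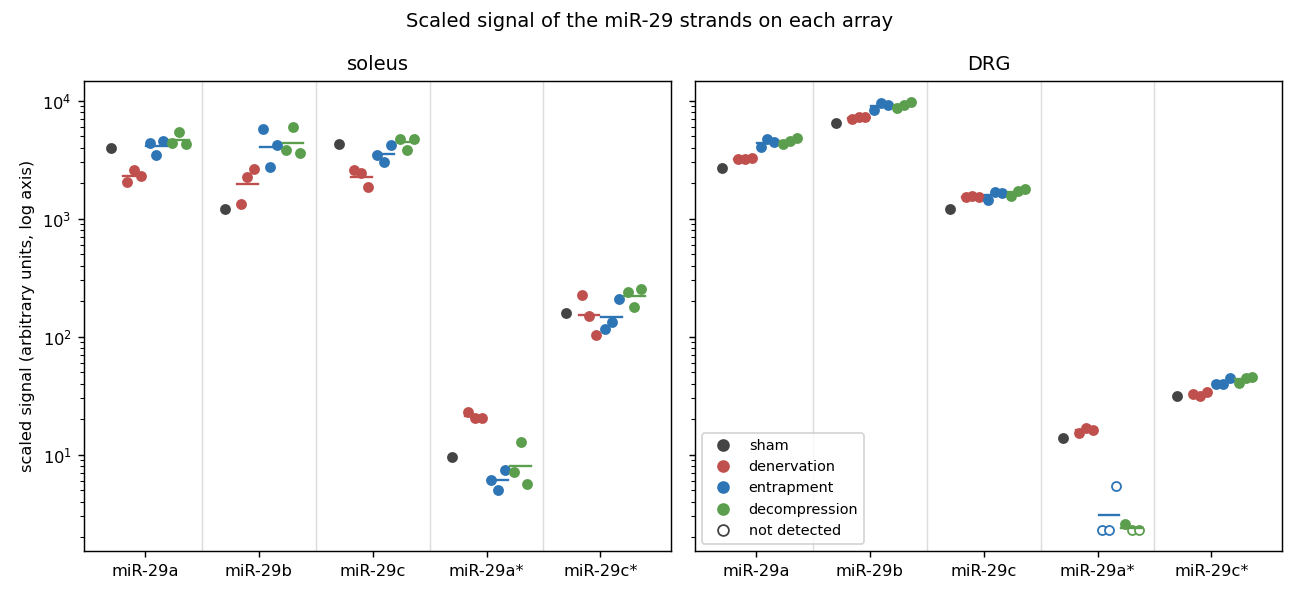
Scaled signal (arbitrary units, log axis) of the 5 miR-29 strands on each of the 10 soleus and 10 DRG arrays, with 1 point per array, a line at the geometric mean of each group of 3, and open points where the strand was not detected. Within a strand, soleus miR-29a* was highest after denervation (20.5 to 23.1), and DRG miR-29a* lay between the floor of 2.31 and 5.44 on the entrapment and decompression arrays, detected on 1 of them. Points of different strands come from different probes and are not to be compared.

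The star strand miR-29a* was at 9.53 in sham, at 23.1, 20.6 and 20.5 after denervation, at 6.13, 4.97 and 7.46 after entrapment and at 7.08, 12.8 and 5.61 after decompression. All denervation arrays lay above all others. miR-29a* was over 2-fold above sham on each of the 3 denervation arrays, as were 15.6% of tested miRNAs, but its difference of 1.17 (SE 0.47) did not pass the limma threshold (adjusted p = 0.0990). miR-29a* was lower by 1.81 after entrapment than after denervation (a value of -1.81, SE 0.33, limma adjusted p = 0.00845), 1 member of 5 called where 11.6% of miRNAs were called lower, and by 1.42 after decompression (-1.42, SE 0.33, limma adjusted p = 0.0233), where 12.7% were called lower. The first call was lost without denervation array 2 (limma adjusted p = 0.0516) or entrapment array 2 (0.0551), and the second without denervation array 1 or 2 or decompression array 1 or 3 (0.0737 to 0.0966). Of the 58 tested soleus miRNAs with the lowest mean signal, which include miR-29a*, the median difference was -0.56 for entrapment against denervation and -0.81 for decompression against denervation, and of the 58 with the highest mean signal, which include the other 4 strands, 0.09 and 0.21. This split by signal was chosen after values were seen, and the part of signal level in these calls was not tested.

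miR-29c*, the other star strand, was at 158 in sham, at 227, 150 and 103 after denervation, at 116, 133 and 210 after entrapment and at 239, 179 and 255 after decompression. Its groups overlapped except for decompression against sham, where it was 0.49 higher (SE 0.51, limma adjusted p = 0.496), and it passed no limma threshold in soleus. Between denervation and decompression miR-29a thus rose while its star fell, and miR-29c rose with a difference of 0.55 for its star (95% interval -0.26 to 1.36).

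In the DRGs, the mature strands miR-29a and miR-29b and the star miR-29c* were higher, and the star miR-29a* was lower, after entrapment and after decompression, against both sham and denervation. The same sets of arrays stood apart on control features, so injury and array set cannot be told apart here. Denervation against sham called 0 of the 5 strands by limma, with 2 of 5 at an unadjusted p under 0.05, where 0.457% of the 219 miRNAs were called. The differences of the mature strands from sham were under 2-fold on every array.

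DRG miR-29a was at 2679 in sham, at 3210, 3207 and 3278 after denervation, at 4061, 4741 and 4461 after entrapment and at 4277, 4604 and 4864 after decompression. The order sham, denervation, then the other groups held with no overlap, while entrapment and decompression overlapped. miR-29a rose by 0.72 over sham after entrapment (SE 0.12, limma adjusted p = 0.00336) and by 0.77 after decompression (SE 0.12, limma adjusted p = 0.00238), and its fitted difference was the highest of all 219 miRNAs in both. Against denervation it rose by 0.45 after entrapment (SE 0.08, limma adjusted p = 0.00295) and by 0.50 after decompression (SE 0.08, limma adjusted p = 0.00170).

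DRG miR-29b was at 6457 in sham, at 6994, 7219 and 7276 after denervation, at 8390, 9515 and 9218 after entrapment and at 8734, 9245 and 9692 after decompression. It rose by 0.48 over sham after entrapment (SE 0.11, limma adjusted p = 0.0148) and by 0.51 after decompression (SE 0.11, limma adjusted p = 0.0120), and by 0.33 (limma adjusted p = 0.00994) and 0.36 (0.00633) over denervation. With rank-consistent loess scaling both sham contrasts missed the threshold, at 0.11 after entrapment (limma adjusted p = 0.216) and 0.16 after decompression (0.0966). Its groups lay in the same order as those of miR-29a.

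DRG miR-29c was at 1212 in sham, at 1519, 1565 and 1542 after denervation, at 1443, 1672 and 1660 after entrapment and at 1551, 1723 and 1770 after decompression. Here all 3 injury groups lay above sham and overlapped each other. The difference from sham was 0.35 after denervation (SE 0.12, limma adjusted p = 0.195), 0.39 after entrapment (SE 0.12, 0.0570) and 0.47 after decompression (SE 0.12, 0.0282), the last of which passed. Against denervation it was 0.04 after entrapment (95% interval -0.15 to 0.24) and 0.12 after decompression (95% interval -0.07 to 0.32). The decompression call of miR-29c was lost without denervation array 1 or 3 or decompression array 2 or 3 (limma adjusted p between 0.0532 and 0.0802). Entrapment passed without entrapment array 1 (0.0182) or decompression array 1 (0.0489).

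The star miR-29c* was at 31.3 in sham, at 32.9, 31.5 and 34.1 after denervation, at 39.6, 39.5 and 44.5 after entrapment and at 40.3, 44.7 and 45.3 after decompression. It rose by 0.40 over sham after entrapment (SE 0.12, limma adjusted p = 0.0462) and by 0.47 after decompression (SE 0.12, limma adjusted p = 0.0237), and by 0.33 and 0.40 over denervation (limma adjusted p = 0.0154 and 0.00563). Its entrapment call against sham was lost without any 1 denervation array, without entrapment array 2 or 3 or without decompression array 2 or 3 (limma adjusted p between 0.0552 and 0.0857). Its decompression call was lost without decompression array 2 (0.0698) or 3 (0.0549), and the call for entrapment against denervation without denervation array 1 (0.0524).

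Among the DRG miRNAs called higher than sham, the miR-29 strands were 3 of 5 after entrapment, with miR-30a* and the Schwann cell marker miR-338, and all 4 of 4 after decompression, where 2.28% and 1.83% of the 219 tested were called higher and 19.6% and 18.3% in either direction. Against denervation 8.22% and 8.68% were called higher, with 3 of the 5 strands among them in each, and 41.1% and 36.5% in either direction. The groups did not overlap for 4 of the 5 strands in either comparison with denervation, as for 51.1% and 56.6% of all tested miRNAs. Over all 219 miRNAs the median difference was -0.11 (entrapment) and -0.13 (decompression). Relative to that median miR-29a was 0.83 and 0.90 higher than sham, and with loess scaling 0.42 and 0.51 and with quantile scaling 0.27 and 0.33 higher. The split of all calls depended on scaling: 5 higher and 38 lower after entrapment became 127 higher and 14 lower under median scaling, where the median of all miRNAs was 0.73, and 0 higher and 67 lower without scaling. Without scaling miR-29a was 0.37 above sham after entrapment (limma adjusted p = 0.236) and 0.0063 above denervation (0.971), and miR-29b turned to -0.11 against denervation. Against denervation the split of 18 higher and 72 lower after entrapment became 126 and 24 under median scaling, and 19 and 61 after decompression became 128 and 26. Of 6 neuron markers, 0 were higher and 1 was lower than sham in both groups, and 3 were higher and 1 lower than denervation. Of 2 endothelial markers 1, miR-126*, was lower in each (-1.69 and -1.68 against sham), and their part in these results was not tested. miR-29a, miR-29b, miR-29a* and miR-29c* were among the 75 DRG miRNAs (34.2%) with no overlap between sham with denervation and the other arrays. In a fit of the entrapment and sham arrays alone 0 strands passed, and in one of the decompression and sham arrays alone 1 passed, miR-29a*. Under quantile scaling, which keeps ranks, miR-29b was at 0.00 against sham in all 3 groups. With the processed table and its labels, miR-29c passed against sham in entrapment (0.52, limma adjusted p = 0.0371) and not in decompression (0.45, 0.0584), and miR-29c* passed in neither (0.52, 0.0587, and 0.45, 0.0787). Against denervation, miR-29c* in decompression then missed the threshold as well (0.27, limma adjusted p = 0.0771).

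**Figure D2:**
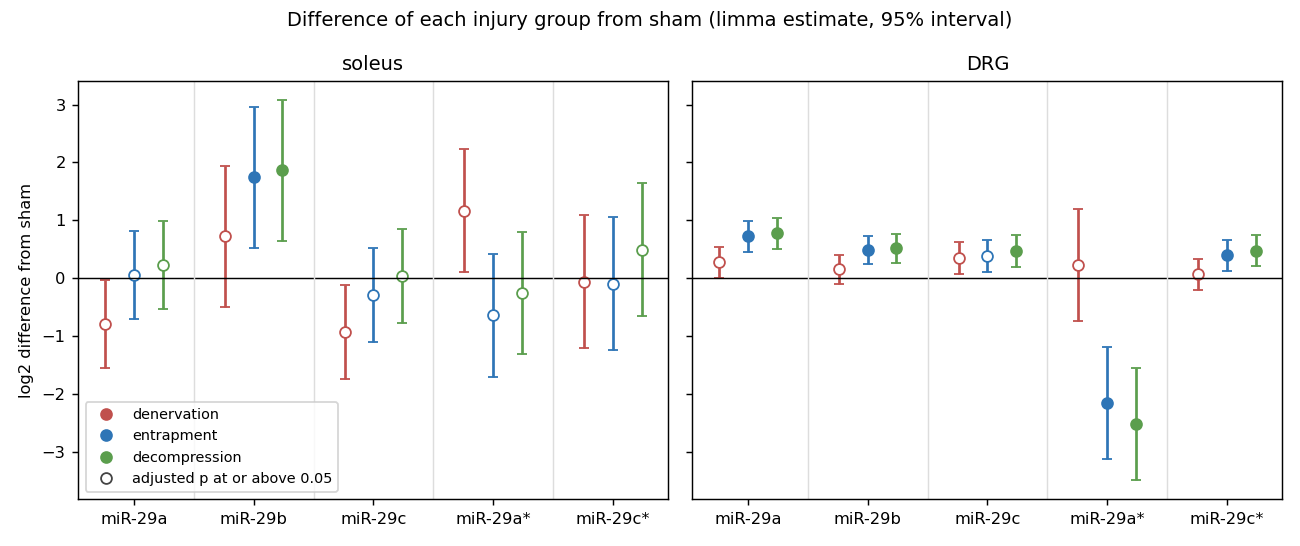
Log2 difference of denervation, entrapment and decompression from sham for the 5 strands in soleus and DRGs, with the limma estimate and its 95% interval (3 arrays against 1). Filled points have an adjusted p under 0.05. In the DRGs the mature strands and miR-29c* lie above 0 and miR-29a*, detected on 1 of 6 arrays, reaches -2.16 and -2.52, values that rest on the floor, and in soleus miR-29b alone is filled, at 1.75 and 1.86.

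The DRG star miR-29a* was detected on 5 of 10 arrays. It was at 13.7 in sham and at 15.2, 17.0 and 16.2 after denervation, all detected. It was not detected on any entrapment array, where 2 arrays lay at the floor of 2.31 and the third at 5.44, and on decompression arrays it was detected once, at 2.58, with the other 2 at the floor. The size of the entrapment difference thus rests on undetected values. Each array was taken at the highest of the floor, its own dimmest detected miRNA and its own miR-29a* signal. On means of log2 values miR-29a* was then 4.46-fold lower than in sham (limma adjusted p = 0.00760) and 5.23-fold lower than after denervation (limma adjusted p = 0.000420). These folds are not lower bounds. The strand went undetected at 5.44, above the dimmest detected miRNA of any entrapment array (3.32 at most). The entrapment array at 5.44 alone lay 1.34 under sham on the log2 scale (-1.34). The decompression differences, with the strand detected on 1 of 3 arrays and the floor setting the other values, were -2.52 against sham (SE 0.42, limma adjusted p = 0.00345) and -2.75 against denervation (SE 0.30, limma adjusted p = 0.000194). On each entrapment and decompression array miR-29a* was over 2-fold below sham, as were 11.0% and 13.7% of tested miRNAs. After denervation it was 0.23 above sham (SE 0.42, limma adjusted p = 0.824). The limma calls were made where 17.4% (entrapment) and 16.4% (decompression) of miRNAs were called lower than sham, and 32.9% and 27.9% lower than denervation.

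Dim miRNAs as a class were lower on the same arrays. Of the 73 tested DRG miRNAs with the lowest mean signal, which include miR-29a*, 24 were called lower than sham after entrapment and 0 higher, with a median difference of -0.88, and 25 were called lower after decompression, with a median of -0.97. The 73 with the highest mean signal, which include all 3 mature strands, had medians of 0.12 and 0.13. The part of signal level in the result for miR-29a* was not tested. miR-29c*, in the middle 73 (medians -0.08 and -0.11), rose. Under quantile scaling the sham contrasts of miR-29a* missed the threshold, at -1.60 (adjusted p = 0.0814) and -1.77 (0.0632), and with the processed table's values and labels they did so at -3.05 (0.0540) and -2.82 (0.0607). They also missed it with a pseudocount of 1 in place of the floor, at -2.65 (limma adjusted p = 0.0515) and -2.48 (0.0693), and with a floor of 0.01 on the unscaled signal, at -4.18 (0.150) and -3.09 (0.276). With that floor decompression against denervation missed it as well (-3.32, limma adjusted p = 0.0870).

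Since both strands are read on the same array, their log2 difference (mature minus star) does not depend on the scaling of that array unless a value lies at the floor. Its size reflects 2 different probes and is not interpretable, so only its change between groups is compared. The miR-29a pair changed in both tissues. Its change from sham was higher in the DRGs than in soleus by 2.00 after denervation (limma adjusted p = 0.0135), 2.30 after entrapment (0.00619) and 2.90 after decompression (0.00101), over 13 pairs tested in both, of which 53.8%, 46.2% and 53.8% were called. The first value rests on detected strands, whereas the sizes of the other 2 are set by the floor, since DRG miR-29a* was detected on 0 of 3 entrapment and 1 of 3 decompression arrays. For miR-29c the same values were 1.14 (0.00734), 0.19 (0.620) and 0.45 (0.269). The test was run over every pair of strands with both detected on at least 3 arrays, 17 pairs in soleus and 21 in the DRGs.

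In soleus the miR-29a strand difference was 8.70 on the sham array, 6.47, 6.98 and 6.79 after denervation, 9.47, 9.46 and 9.26 after entrapment and 9.26, 8.73 and 9.57 after decompression. The denervation arrays lay below all others. The difference was lower than in sham by 1.96 after denervation (-1.96, SE 0.35, limma adjusted p = 0.00196), where 47.1% of pairs were called in either direction. The sham value rests on a dim miR-29a* signal, 2.35 times the scanner's error, against 4.45 to 11.1 times after denervation. The single sham array could not be left out. The strand difference was higher than after denervation by 2.65 after entrapment (SE 0.25, limma adjusted p = 0.000108) and by 2.44 after decompression (SE 0.25, limma adjusted p = 0.000119), where 17.6% and 23.5% of pairs were called. Entrapment was 0.69 above sham (SE 0.35, limma adjusted p = 0.130) and decompression 0.48 (SE 0.35, 0.279), where 58.8% and 47.1% of pairs were called. Without any 1 injury array the change of miR-29a stayed between -2.07 and -1.82 (denervation against sham), 2.51 and 2.77 (entrapment against denervation) and 2.25 and 2.67 (decompression against denervation), and it passed the threshold each time.

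The soleus strand difference of miR-29c was 4.77 in sham, 3.52, 4.03 and 4.17 after denervation, 4.90, 4.51 and 4.33 after entrapment and 4.32, 4.41 and 4.23 after decompression. Denervation was again lowest, by 0.87 under sham (-0.87, SE 0.32, limma adjusted p = 0.0526), and entrapment and decompression were 0.67 (adjusted p = 0.0637) and 0.41 (adjusted p = 0.260) above denervation. None of these passed. Denervation against sham passed without denervation array 3 (limma adjusted p = 0.0276) or entrapment array 1 (0.0492), and entrapment against denervation without denervation array 3 (0.81, 0.0194).

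**Figure D3:**
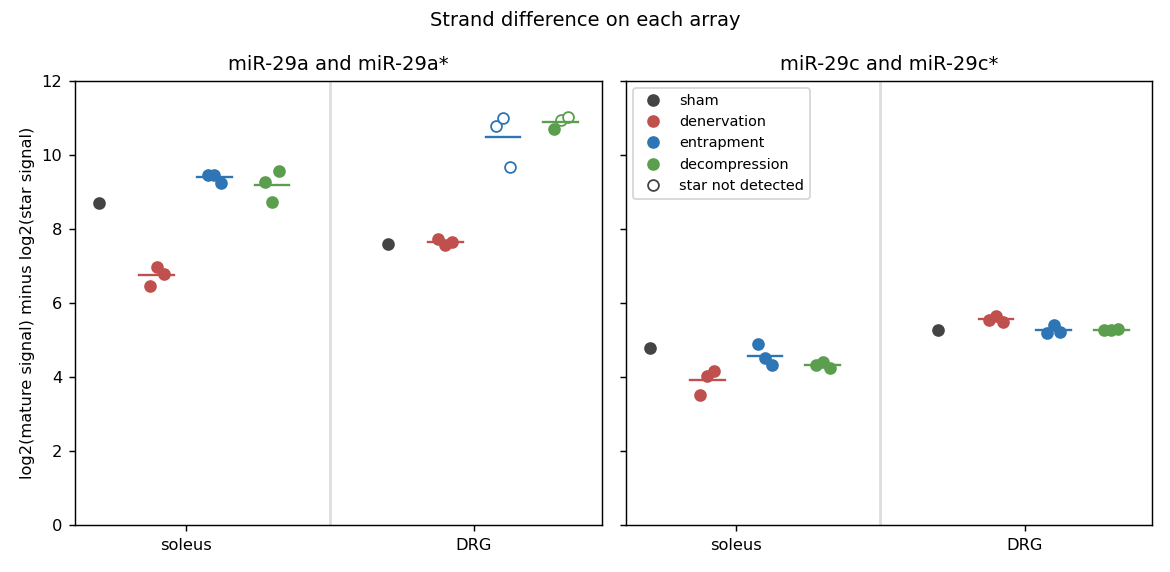
Strand difference, log2 of the mature signal minus log2 of the star signal, on each array for miR-29a (left) and miR-29c (right), by tissue and group, with a line at the mean of 3 arrays and open points where the star strand was not detected. For miR-29a the soleus denervation arrays lie lowest, at 6.47 to 6.98, and the DRG entrapment and decompression arrays highest, at 9.68 to 11.04, and for miR-29c every array lies between 3.52 and 5.64.

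In the DRGs the miR-29a strand difference was 7.61 in sham and 7.72, 7.56 and 7.66 after denervation, so that denervation and sham overlapped (0.04, 95% interval -0.98 to 1.07). It was 10.78, 11.00 and 9.68 after entrapment and 10.70, 10.96 and 11.04 after decompression, all above sham and denervation. The change from sham was 2.88 after entrapment (SE 0.44, limma adjusted p = 0.00115) and 3.29 after decompression (SE 0.44, limma adjusted p = 0.000469), and from denervation 2.84 (SE 0.31, 0.000118) and 3.25 (SE 0.31, 4.5e-05). The star was not detected on 5 of these 6 arrays, so the sizes of all 4 changes rest on the floor. The change from sham was 2.07 on the entrapment array where the undetected star lay above the floor. Of the 21 pairs 47.6% were called against sham and 61.9% against denervation. Leaving out any 1 injury array kept the changes from sham between 2.60 and 3.35 and past the threshold. With a floor of 0.01 on the unscaled signal they grew to 4.90 (limma adjusted p = 0.0651) and 3.87 (0.112) and missed it.

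Across the DRG pairs, more star than mature strands were called lower. With entrapment 6 of 21 star strands were called lower than sham and 2 higher (median -0.47), against 1 lower and 2 higher among their mature partners (median 0.00), and after decompression 7 star strands were lower and 1 higher (median -0.53), against 1 and 2 (median -0.14). Of all 219 miRNAs tested in the DRGs, 17.4% and 16.4% were called lower than sham after entrapment and decompression. Among the 73 with the lowest mean signal 24 and 25 were called lower, and the part of signal level in the star strand counts was not tested. Of the 21 pairs 8 widened and 2 narrowed in each comparison. In soleus 5 pairs were wider and 5 narrower than sham after entrapment, and 4 each way after decompression.

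The DRG strand difference of miR-29c was 5.28 in sham, 5.53, 5.64 and 5.50 after denervation, 5.19, 5.40 and 5.22 after entrapment and 5.27, 5.27 and 5.29 after decompression. Its groups spanned under 0.5 on the log2 scale. Denervation lay 0.28 above sham (SE 0.12, limma adjusted p = 0.30), and entrapment and decompression fell by 0.28 under denervation (limma adjusted p = 0.0188 and 0.0252), the opposite direction to miR-29a. The first call was lost without denervation array 2 (0.0641) or entrapment array 1 (0.0736) or 3 (0.0570), and the second without denervation array 2 (0.0750) or decompression array 2 (0.0735). Entrapment and decompression differed from sham by -0.01 (95% interval -0.28 to 0.26) and 0.00 (95% interval -0.27 to 0.27).

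**Figure D4:**
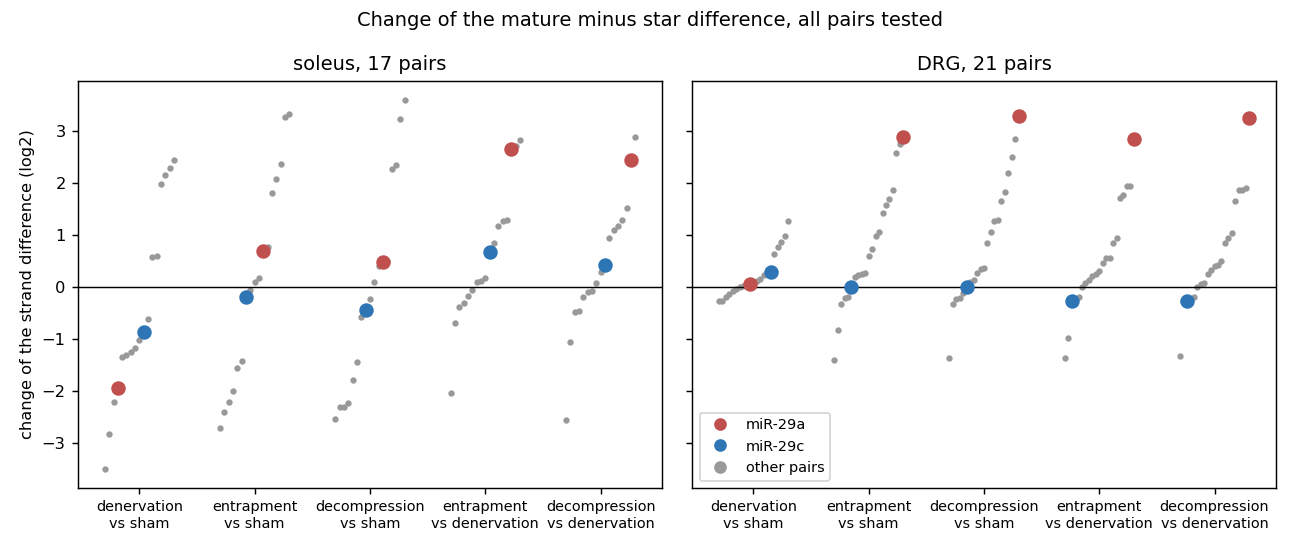
Change of the strand difference (log2) between groups for all 17 soleus and 21 DRG pairs, 1 point per pair sorted by size within each comparison, with miR-29a in red and miR-29c in blue. miR-29a lies at 2.84 to 3.29 in the 4 DRG comparisons of entrapment and decompression with sham or denervation, values that rest on the floor as its star was detected on 1 of those 6 arrays, and near 0 for denervation against sham. Points of other pairs can rest on the floor too, so their order is not read.

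Differences between entrapment and decompression passed the limma threshold for 0 of the tested miRNAs and 0 of the strand pairs in either tissue, against 7 soleus and 9 DRG miRNAs with an unadjusted p under 0.05. None of the 5 strands was among these, and the decompression minus entrapment differences had 95% intervals of -0.14 to 0.24 for miR-29a and -0.14 to 0.20 for miR-29b in the DRGs and of -0.36 to 0.72 and -0.75 to 0.98 in soleus.

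Between tissues, the 20 arrays were scaled together, which moves the printed signals. miR-29b ran from 7122 to 11362 (median 10532) on DRG arrays and from 1082 to 5138 (median 2698) on soleus arrays with no overlap, a difference of 2.01 (SE 0.17, limma adjusted p = 3.2e-08). miR-29c* ran from 34.5 to 53.5 (median 46.9) in DRGs and from 90.3 to 221 (median 148) in soleus, also without overlap, a difference of -1.81 (SE 0.16, limma adjusted p = 6.8e-08). The other strands overlapped between tissues. miR-29c was lower in the DRGs by 0.86 (-0.86, SE 0.10, limma adjusted p = 1.4e-06), miR-29a* by 0.32 (-0.32, adjusted p = 0.178) and miR-29a was 0.38 higher (adjusted p = 0.000765), a direction that turned to -0.10 with median scaling and -0.42 with the percentile over all miRNAs. Of the 234 miRNAs tested 62.8% were higher and 18.8% lower in the DRGs, with a median of 1.03, and only miR-29b among the strands was above that median. Tissue and array batch cannot be told apart. The strand difference of miR-29c, with both strands detected on all 20 arrays and so no effect of scaling, was higher in the DRGs by 0.95 (SE 0.10, limma adjusted p = 5.4e-07, 9 of 13 pairs called, 69.2%). That of miR-29a was 0.70 higher (SE 0.19, limma adjusted p = 0.00411), with its star not detected on 5 of the 10 DRG arrays. This call was lost with a floor of 0.01 on the unscaled signal (1.302, limma adjusted p = 0.0614), and the sham arrays, with both strands detected, ran the other way (7.61 in the DRGs and 8.70 in soleus).

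Over the 10 arrays of a tissue the strands tracked each other unequally. In the DRGs miR-29a and miR-29b, whose precursors share a cluster, had a Pearson r of 0.996, miR-29a and miR-29c 0.809, and miR-29a and its own star -0.891. In soleus the same pairs had 0.673, 0.833 and -0.723. For miR-29b and miR-29c, whose precursors Mir29b2 and Mir29c also share a cluster, r was 0.795 in the DRGs and 0.310 in soleus. Arrays of a group share an injury and the DRG arrays fall into sets, so these are descriptions. DRG miR-29a* was detected on 5 of 10 arrays, so its r values, here and below, rest in part on the floor. Its Spearman rho was -0.794 with miR-29a, and 0.798, 0.832 and 0.782 with miR-450a, miR-126* and miR-30c. Outside the family the closest profiles in the DRGs were those of miR-652, miR-99a and miR-23b for both miR-29a (r 0.945, 0.912 and 0.905) and miR-29b (0.965, 0.915 and 0.906), of let-7c, miR-497 and let-7d for miR-29c (0.945, 0.937 and 0.919), of miR-450a, miR-126* and miR-30c for miR-29a* (0.97 each) and of miR-183, miR-652 and miR-107 for miR-29c* (0.898, 0.889 and 0.854). In soleus they were miR-27b, miR-101a and miR-27a for miR-29a (0.831, 0.821 and 0.788), miR-24, miR-195 and miR-34a for miR-29b (0.888, 0.839 and 0.824), miR-106b, miR-16 and miR-101a for miR-29c (0.786, 0.767 and 0.75), miR-664, miR-505 and miR-760-5p for miR-29a* (0.893, 0.864 and 0.858) and miR-26a, miR-218 and miR-101b for miR-29c* (0.880, 0.854 and 0.837). No strand had a miRNA in common between its 3 in soleus and its 3 in the DRGs.

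A list of 16 other miRNAs linked to fibrosis gave the surroundings of the family in its best known role, with 13 tested in each tissue. The list was not split by the direction of that link, so its counts and medians give no direction of fibrosis. Against soleus sham 4 were higher and 1 lower after denervation, where 11.6% of all miRNAs were higher and 15.0% lower (median -0.26, all miRNAs -0.07). After entrapment 4 were higher and 2 lower, against 9.83% and 19.7% (medians -0.55 and -0.37), and after decompression 4 and 3, against 9.83% and 22.0% (-0.18 and -0.25). miR-21, a pro-fibrotic miRNA, rose by 3.28, 3.59 and 3.23 (limma adjusted p = 0.000828, 0.000365 and 0.000614). In the DRGs miR-21 was the single miRNA of 219 called after denervation (1.29, limma adjusted p = 0.00511, background 0.457%), and 0 of 13 were higher than sham after entrapment and decompression, where 3 and 2 were lower (17.4% and 16.4% of all miRNAs), miR-145 (-1.17 and -1.27) and miR-30c (-1.05 and -1.12) in both. Of 16 miRNAs linked to myogenesis and atrophy, 14 were tested in soleus, where miR-1 alone rose, after denervation (3.00, limma adjusted p = 0.0355), and miR-133b fell in all 3 groups (-1.99, -2.14 and -1.75). In all, 2, 2 and 3 of the 14 were called lower after denervation, entrapment and decompression, where 15.0%, 19.7% and 22.0% of all miRNAs were lower. In the DRGs 15 were tested, with 0 higher than sham and 0, 2 and 1 lower after denervation, entrapment and decompression, where 0%, 17.4% and 16.4% of all miRNAs were lower.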

How the data were processed

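RNA of soleus muscle and L4-L6 DRGs was hybridised to Agilent 1-colour rat miRNA arrays, and the authors' deposited scanner files hold, for each miRNA, a background-subtracted total gene intensity and a detection call from Agilent Feature Extraction 9.5.3, not normalised between arrays. The labels describe labelling with Cy3-CTP and the Methods a ligation of Cy3. The authors' processed signal table was used as an alternative. Nearly all of its values, and all of the 5 strands, were within 1% of the scanner values divided by 1 constant per array. That constant was 1222 for soleus decompression array 2 and between 38.7 and 100 for the other soleus arrays, so processed values of that array are low throughout. The Methods also name a rank-consistency LOWESS step, and a loess of that kind was run here as another alternative. The number of arrays limits the precision.

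Each array was divided by its 75th percentile (soleus: over the 108 miRNAs detected on all 10 arrays; DRGs: over all 348, with 2 of 350 left out for names that differ between files). Scaled values were raised to a floor of 2.71 in soleus and 2.31 in the DRGs (per array the dimmest detected miRNA, then the median of these) before the log2 transform. Tests covered miRNAs with a detection call on 3 or more of the 10 arrays and used limma 3.58.1 in R 4.3.3 (two-sided, group as the only term, all 10 arrays of the tissue, Benjamini-Hochberg threshold 0.05). The labels number the replicate arrays, and the Methods give 3 rats of each group for arrays, so replicates were taken as biological. The strand difference was tested likewise over pairs, and tissues in 1 fit of 20 arrays. The 2-fold rule asks for a 2-fold difference from sham on each of 3 arrays. Scripts were tested on simulated data. Alternatives were other scalings, filters, floors, sources of values and sets of arrays.

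The members and lists were chosen with earlier results of these data known. Named were the 5 strands, the 3 miRNAs most correlated with each, tested strand pairs and listed miRNAs. miR-30a* was named after its values were seen. Sequences are from RefSeq. Figures used Python 3.11.15 and matplotlib 3.10.9. The check of replicate numbers is in the closing section.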

Additional observations from a re-analysis of the deposited data

Results flagged for a closer look

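In 4 cases the difference of an injury group from sham differed between tissues by a limma interaction test over 234 miRNAs. For miR-29a after denervation it was higher in the DRGs than in soleus by 1.06 (SE 0.28, limma adjusted p = 0.0128), and for miR-29c by 1.27 (SE 0.33, limma adjusted p = 0.0117), where 23.5% of miRNAs were called. For miR-29a after entrapment it was higher in the DRGs by 0.86 (SE 0.28, limma adjusted p = 0.0318), and for miR-29a* after decompression the value was -2.20 (SE 0.70, limma adjusted p = 0.0329), where 27.4% were called in each. The entrapment value missed the threshold without soleus entrapment array 2 (0.73, limma adjusted p = 0.0520), DRG entrapment array 2 (0.84, 0.0608) or DRG entrapment array 3 (0.85, 0.0511), and the decompression value without DRG decompression array 2 (-2.11, 0.0506) or 3 (-2.16, 0.0630). The decompression value of miR-29a* rests on the floor, since the strand was detected on 1 of 3 DRG decompression arrays, and with a floor of 0.01 on the unscaled signal it was -2.68 (limma adjusted p = 0.324).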

How the results depend on the processing

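Counts are of the 5 strands past the limma threshold unless the 2-fold rule is named, and the cause of a change was not tested. Of the recomputed counts, strand and tissue values 730 kept direction and call, 98 counts or values moved, 13 gained and 11 lost the call and 2 reversed, and of single strand differences 823 kept both, 124 lost and 25 gained the call and 29 reversed.

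In soleus, denervation against sham (0) gave 1 with quantile, loess or all-miRNA percentile scaling. Entrapment against sham (1) gave 0 without a filter, with the floor of 0.01, processed values, only the arrays of both groups or the replicate block. Decompression against sham (1) gave 0 without scaling, without a filter, with processed values, only the arrays of both groups or the block, and 2 with quantile or all-miRNA percentile scaling. Entrapment against denervation (1) gave 0 without scaling, with loess or processed values, 2 with median scaling, no filter, detection on all 10 arrays or an intensity trend, and 4 with the all-miRNA percentile. Decompression against denervation (3) gave 0 without scaling, with quantile or loess scaling, processed values, only the arrays of both groups or the block. Leaving out 1 array gave 0 to 1 for each sham contrast, 0 to 2 for entrapment and 0 to 4 for decompression against denervation. By the 2-fold rule, denervation (1) gave 2 without scaling or with processed values, 0 with median or loess scaling and 3 at 1.5-fold, entrapment (1) gave 3 without scaling and 5 with processed values, and decompression (1) gave 4 and 0.

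In the DRGs, entrapment against sham (4) gave 1 without scaling, 2 with quantile scaling or detection on all 10 arrays and 0 with only the arrays of both groups. Decompression against sham (5) gave 1 without scaling, 2 with quantile scaling or processed values, 1 with only the arrays of both groups and 3 with the block, and 3 to 5 without 1 array. Both contrasts with denervation (4) gave 1 without scaling. By the 2-fold rule entrapment (1) gave 4 with median scaling, 0 with quantile or loess scaling and 2 at 1.5-fold, and decompression (1) gave 5 with median scaling and 2 at 1.5-fold.

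The strand difference of miR-29c in soleus passed for denervation against sham without scaling or with both strands detected on all arrays (-0.87) and with a pseudocount (-0.86), and ran from -1.001 to -0.68 without 1 array. For entrapment against denervation it passed at 0.67 under the first pair of settings and ran from 0.48 to 0.81. That of miR-29a for entrapment against sham passed at 0.69 with both strands detected on all arrays. With the floor of 0.01, DRG miR-29a missed the threshold at 4.90 (entrapment against sham), 3.87 (decompression against sham) and 1.302 (DRG minus soleus). DRG miR-29c ran from -0.35 to -0.24 (entrapment against denervation) and from -0.31 to -0.24 (decompression against denervation).

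The tissue difference of miR-29a was 0.25 without scaling, -0.10 with median scaling, -0.42 with the all-miRNA percentile and 0.023 with processed values. That of miR-29c missed the threshold at -1.22 with processed values, and that of miR-29a* passed at -0.70, -1.96 and -0.97 with median, quantile and all-miRNA percentile scaling and ran from -0.46 to -0.18 without 1 array. Of interactions, denervation (2) gave 0 without scaling or with processed values and 1 with quantile or percentile scaling. Entrapment (1) gave 0 without scaling, with median scaling, the floor of 0.01, processed values or the block and 2 with quantile or percentile scaling. Decompression (1) gave 2 with quantile or percentile scaling or no filter and 0 with the floor, processed values or the block. Both ran from 0 to 2 without 1 array.

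Directions turned as follows. Without scaling, soleus miR-29a and miR-29c were at 0.69 and 0.56 (denervation), miR-29a* and miR-29c at 0.99 and 1.34 (entrapment), DRG miR-29b and miR-29c* at -0.11 and -0.12 (entrapment against denervation) and -0.068 and -0.028 (decompression against denervation), and the interactions at -0.33, -0.12 and -1.32. Soleus entrapment miR-29a* was at 0.66 (quantile), 0.67 (loess) and 0.16 (all-miRNA percentile, miR-29c 0.51, interaction -0.14). DRG denervation gave -0.12 for miR-29a and -0.027 for miR-29c* (quantile) and -0.18 for miR-29b (loess). Processed values gave 1.15 and 1.01 (soleus denervation, miR-29a and miR-29c), 1.55 and 1.90 (entrapment, miR-29a* and miR-29c), -0.20, -0.084 and -0.26 (decompression against denervation, miR-29a, miR-29b and miR-29c) and interactions of -0.77, -0.56 and -1.42. The soleus fits with processed values include decompression array 2, with its constant of 1222, and the part of that array was not tested.

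Same-numbered arrays deviated together (r over 0.1) in 1 of 9 soleus and 4 of 9 DRG pairs, so the numbers were not taken to pair samples. With the replicate block soleus miR-29b was 1.66 above sham after entrapment (limma adjusted p = 0.130) and 1.77 after decompression (0.111).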
